A study of Mus musculus with 12 samples.

Results

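The 9 genes described here follow the signal of leukaemia inhibitory factor (LIF) from the cell surface to the nucleus of mouse embryonic stem cells (ESCs). They are the receptor subunits *Lifr* and *Il6st*, the kinase *Jak1*, the transcription factor *Stat3*, the inhibitor *Socs3*, and *Tbx3*, *Gbx2*, *Pim1* and *Junb*, which are known as targets of STAT3 or of LIF. The genes were chosen by name, with earlier results of these data known, from 35580 genes to which the deposited transcripts were summed. All 9 were among the 17424 genes that passed the filter on low counts.

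LIF brings the LIF receptor and gp130, the product of *Il6st*, together at the membrane. Kinases of the JAK family bound to their tails phosphorylate STAT3, which enters the nucleus and raises its target genes. One of these, *Socs3*, makes a protein that binds gp130 and JAK and shuts the signal off, so that its transcript level is widely read as a sign of recent STAT3 activity. In mouse ESCs the signal helps to hold the naive state, and it is withdrawn when the cells are taken towards the epiblast stage.

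mRNA was sequenced from wild-type (WT) R1 mouse ESCs and from a CIDEA knockout (KO) line made from them, in which the *Cidea* locus was deleted with CRISPR-Cas9. ESCs (0 h) were cultured in serum with LIF on gelatine, and spheroids were collected 24 h and 48 h after the cells were moved to growth factor-reduced Matrigel in medium with more serum and no LIF. The labels describe cells embedded in the matrix, and the study's methods describe cells cultured on top of it for molecular experiments. Each of the 6 groups had 2 libraries from independent samples, so that p-values measure only the spread between these libraries. All KO libraries came from 1 clone, and the effect of the deletion cannot be told apart from other differences of that clone. The loss of LIF, the change to a three-dimensional matrix, the change of serum and time itself cannot be told apart either, because all of them separate 0 h from 24 h and 48 h. In such bulk samples, fewer cells of a type and less RNA per cell cannot be told apart.

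Libraries held 29.0 to 38.5 M estimated counts. *Cidea* had 20 to 117 estimated counts in the 6 WT libraries and 0 in the 6 KO libraries, a count that allows up to 3 counts per library by counting error. Replicate 1 of the KO spheroids at 24 h stood apart, with 15489 genes detected at equal depth against 17641 to 19672 in the other libraries, and the changes from 0 h to 24 h in KO cells are given with and without it. The stem cell markers *Pou5f1*, *Sox2*, *Nanog*, *Zfp42*, *Esrrb* and *Utf1* summed to 3310 to 3760 TPM, a level scaled for transcript length and depth, at 0 h and to 2130 to 2380 TPM at 48 h. In both genotypes 5 of these 6 were called lower at 48 h than at 0 h and *Utf1* was called higher, and the part of such changes in those of the 9 genes was not tested. The post-implantation epiblast markers *Fgf5*, *Otx2*, *Dnmt3b*, *Pou3f1* and *Lef1* rose in both genotypes. They summed to 87.3 to 88.9 TPM in WT and 59.5 to 64.0 TPM in KO cells at 0 h. At 24 h they summed to 381 to 404 and 302 to 318 TPM, and at 48 h to 718 and 687 to 722 TPM. In KO cells *Otx2* and *Lef1* were called lower than in WT at 0 h, against 1.26% of all genes called in either direction. *Dnmt3b*, *Pou3f1* and *Lef1* were called lower at 24 h, against 1.46%, and none at 48 h. Of the stem cell markers *Zfp42* was called higher in KO cells at 0 h and at 24 h, against the same shares, and none at 48 h. The part of these differences in those of the 9 genes was not tested. Fibroblast markers summed to between 6.88 and 24.8 TPM, and 2 to 4 of the 7 were at 3 counts or fewer in both libraries of each group.

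Transcripts of all 9 genes were lower at 48 h than before induction in both genotypes. Because the genes were chosen with earlier results of these data known, the counts of calls describe them and do not test them as a set. In WT cells 8 of the 9 were called lower at 24 h than at 0 h and none higher, where 7.47% of all genes tested were called lower and 7.54% higher. Between 24 h and 48 h 8 were again called lower, against a background of 4.86% lower and 3.28% higher. With transcript lengths in the fit these 2 counts were 5 and 4, and with limma on TPM they were 5 and 2. From 0 h to 48 h all 9 were called lower, against a background of 12.5% lower and 11.1% higher. With transcript lengths in the fit the count was 8, without *Lifr*, and with limma on TPM it was 7, without *Lifr* and *Jak1*. Calls used a threshold of 0.05 on p-values that edgeR's quasi-likelihood test gave and that were adjusted by Benjamini-Hochberg over every gene in the fit, and the adjusted p-values below are from this fit. The median log2 fold change of the 9 genes in WT cells was -0.98 at 24 h and -1.86 at 48 h against 0 h, while the median over all genes tested was 0 and 0.02.

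In CIDEA KO cells 7 of the 9 were called lower at 24 h than at 0 h, against a background of 9.33% lower and 9.24% higher, and *Lifr* and *Il6st* were not called. Without the KO library that detected the fewest genes 6 were called, against 6.77% lower and 7.02% higher, and *Jak1* was lost. *Jak1* was also lost at 24 h with transcript lengths in the fit, with limma on TPM and with only the groups compared. From 24 h to 48 h 7 were called lower, against a background of 5.37% lower and 4.57% higher. The count was 3 with transcript lengths in the fit and 3 with limma on TPM. In the main fit *Jak1* and *Pim1* were not called. Without that library *Jak1* was called here too (log2 -0.46, adjusted p = 0.018). From 0 h to 48 h all 9 were called lower in KO cells as well, against a background of 12.8% lower and 12.1% higher. Here 8 were called with transcript lengths in the fit, without *Jak1*, and 7 with limma on TPM, without *Lifr* and *Jak1*. The median log2 fold change of the 9 genes in KO cells was -1.39 at 24 h and -1.52 at 48 h against 0 h, beside -0.03 and 0.01 over all genes tested. Both genotypes were lower for all 9 genes at 48 h, by log2 fold changes from -0.48 to -5.37 in WT and from -0.81 to -6.74 in KO cells.

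**Figure D1:**
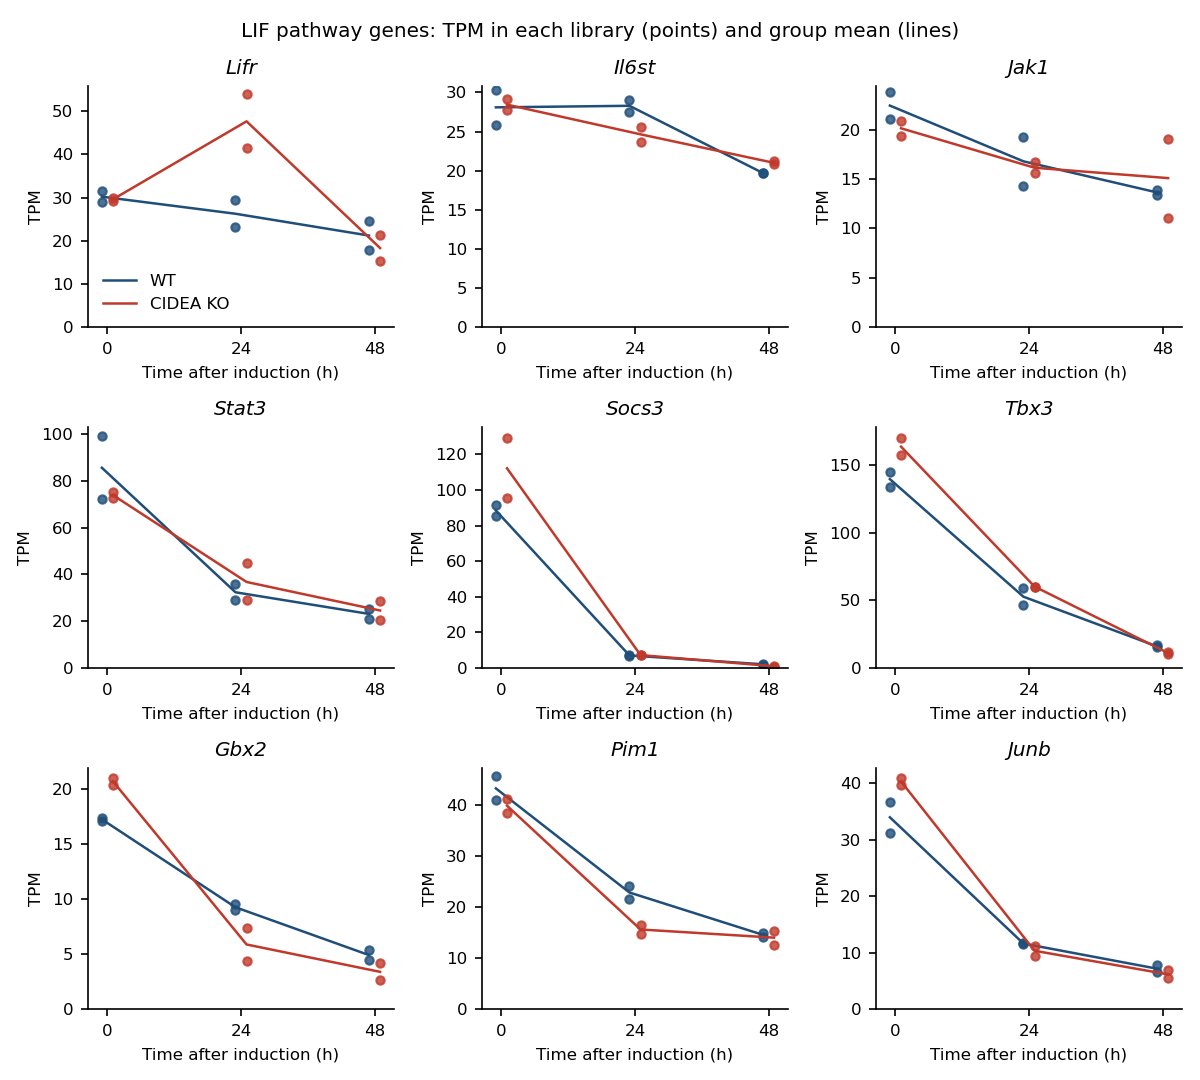
TPM of the 9 genes in each library (points) against hours after induction, with lines through the means of the 2 libraries, WT in blue and CIDEA KO in red; each panel has its own linear axis from 0. *Socs3* went from 85.4 to 129 TPM at 0 h to 6.90 to 7.34 TPM at 24 h, while *Lifr* in KO cells was highest at 24 h.

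The order of the levels turned over with time. In WT ESCs *Tbx3* had the highest mean of the 9 at 139 TPM, followed by *Socs3* at 88.5 TPM and *Stat3* at 85.6 TPM. *Pim1* (43.3 TPM), *Junb* (33.9 TPM), *Lifr* (30.2 TPM), *Il6st* (28.1 TPM), *Jak1* (22.5 TPM) and *Gbx2* (17.3 TPM) came after them. The ranges of the 2 libraries overlapped between the neighbours *Socs3* and *Stat3*, *Junb* and *Lifr*, and *Lifr* and *Il6st*, and not between the others. At 24 h *Tbx3* was still first in WT spheroids with 52.7 TPM, and *Socs3* was ninth with 7.10 TPM. At 48 h *Stat3* (23.1 TPM), *Lifr* (21.2 TPM) and *Il6st* (19.7 TPM) headed the order. The range of *Lifr* overlapped those of *Stat3* and *Il6st*, but these 2 did not overlap each other. *Tbx3* had moved to the fourth place with 16 TPM, and *Socs3* was last with 2.14 TPM. *Socs3* passed from the second to the last place, and *Lifr* and *Il6st* from the sixth and the seventh place to the second and the third. These later places rested in part on short transcripts. The coding transcripts Lifr-203 and Lifr-201 together gave 13.2 and 13.7 TPM in WT spheroids at 48 h, below *Pim1* at 14.1 and 15.0 TPM. Il6st-205, of 322 bases, gave 4.09 and 3.40 TPM of *Il6st* there.

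The receptor subunits changed the least among the 9 in WT cells, together with *Jak1*. *Lifr* (chr15:7090614-7197489, plus strand, GRCm38), which encodes the LIF-binding subunit, had 28.9 and 31.5 TPM in WT ESCs, 23.1 and 29.4 TPM at 24 h and 17.9 and 24.5 TPM at 48 h. Gene counts scaled to a common library size with edgeR's normalization factors (normalised CPM) separated these groups, whose TPM ranges overlapped between 0 h and 24 h and between 24 h and 48 h, with 149 and 145 CPM at 0 h, 121 and 117 CPM at 24 h and 77.0 and 81.1 CPM at 48 h. The fall was 1.23-fold at 24 h (log2 -0.30, SE 0.09, adjusted p = 0.029) and 1.86-fold at 48 h (log2 -0.89, SE 0.091, adjusted p = 3.6e-07). *Il6st* (chr13:112464070-112510086, plus strand), whose product gp130 is shared by the receptors of the IL-6 family, had 110 and 114 CPM in WT ESCs, 86.3 and 90.1 CPM at 24 h and 56.0 and 65.4 CPM at 48 h. It fell 1.27-fold at 24 h (log2 -0.35, SE 0.099, adjusted p = 0.022) and 1.85-fold at 48 h (log2 -0.89, SE 0.10, adjusted p = 1.5e-06). In TPM the values of *Il6st* at 0 h and 24 h overlapped, with 25.9 and 30.3 TPM at 0 h and 29.1 and 27.5 TPM at 24 h. Its transcript Il6st-205, of 322 bases, had 0 and 3.54 TPM at 0 h and 7.80 and 4.53 TPM at 24 h. The longer Il6st-201 overlapped (15.2 and 20.3 against 15.6 and 18.8 TPM), and Il6st-203 did not (7.90 and 6.42 against 4.91 and 3.85 TPM). The part of Il6st-205 in the overlap of the gene values was not tested. The 24 h calls of both subunits ended when any single one of the 4 WT libraries compared was left out, and when transcript length entered the fit (adjusted p = 0.54 for *Lifr* and 0.91 for *Il6st*). The 48 h call of *Lifr* ended with transcript lengths (log2 -0.54, adjusted p = 0.09) and with limma on TPM (log2 -0.50 and -0.52, adjusted p = 0.15 with either pseudocount).

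In KO cells both subunits were called lower at 48 h and neither at 24 h. *Lifr* had 144 and 135 CPM at 0 h, 142 and 162 CPM at 24 h and 74.5 and 83.8 CPM at 48 h, so that the values at 0 h and 24 h overlapped and those at 48 h lay below both. The log2 fold change was 0.12 at 24 h (SE 0.09, adjusted p = 0.40) and -0.82 at 48 h (SE 0.091, adjusted p = 9.2e-07). The call at 48 h was lost with limma on TPM (log2 -0.69 and -0.71, adjusted p = 0.059 and 0.058). Without the KO library that detected the fewest genes the 24 h values were 0.21 for *Lifr* (adjusted p = 0.19) and -0.23 for *Il6st* (adjusted p = 0.24). *Il6st* had 105 and 113 CPM at 0 h, 87.2 and 93.1 CPM at 24 h and 64.6 and 56.9 CPM at 48 h, with log2 fold changes of -0.27 (SE 0.099, adjusted p = 0.063) and -0.84 (SE 0.10, adjusted p = 2.2e-06). Its 3 KO groups did not overlap.

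*Jak1* (chr4:101152367-101265282, minus strand), the receptor-bound kinase, moved by less than the downstream genes. WT cells had 55.1 and 57.4 CPM at 0 h, 47.3 and 51.0 CPM at 24 h and 40.9 and 39.8 CPM at 48 h, groups that did not overlap. The log2 fold change was -0.19 at 24 h (SE 0.16, adjusted p = 0.51) and -0.48 at 48 h (SE 0.16, adjusted p = 0.042), and the 48 h call ended with limma on TPM (adjusted p = 0.079 and 0.082) and in 10 of 12 fits without 1 library. In KO cells *Jak1* had 63.5 and 64.7 CPM at 0 h, 29.8 and 49.9 CPM at 24 h and 36.5 and 36.6 CPM at 48 h. The lowest of these values belonged to replicate 1 of the KO spheroids at 24 h, the library that detected the fewest genes. The log2 fold change at 24 h was -0.69 (SE 0.16, adjusted p = 0.0065) with this library and -0.37 (adjusted p = 0.056) without it. At 48 h it was -0.81 (SE 0.16, adjusted p = 0.0012), which became -0.38 (adjusted p = 0.32) with transcript lengths in the fit and -0.44 and -0.46 (adjusted p = 0.26) with limma on TPM.

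*Stat3* (chr11:100885098-100939540, minus strand), the transcription factor of the pathway, fell more than the genes above it. In WT cells it had 72.1 and 99.1 TPM at 0 h, 35.9 and 28.9 TPM at 24 h and 21 and 25.3 TPM at 48 h, and in KO cells 75.3 and 72.5 TPM, 44.7 and 28.9 TPM, and 28.5 and 20.7 TPM. At 0 h every library lay above every library of the later times in both genotypes. The fall from 0 h to 24 h was 2.55-fold in WT (log2 -1.35, SE 0.10, adjusted p = 1.2e-08) and 1.88-fold in KO cells (log2 -0.91, SE 0.10, adjusted p = 1.6e-06), the latter -1.05 (adjusted p = 4.2e-08) without the KO library that detected the fewest genes. By 48 h it had reached 3.8-fold in WT (log2 -1.93, SE 0.10, adjusted p = 4e-11) and 2.88-fold in KO cells (log2 -1.52, SE 0.10, adjusted p = 7.4e-10). In WT cells 70.2% of the log2 change over 48 h had taken place by 24 h, and in KO cells 59.8%.

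*Socs3* (chr11:117966079-117970047, minus strand) fell the most of the 9 genes at both times and in both genotypes. WT ESCs had 85.4 and 91.6 TPM, WT spheroids 7.30 and 6.90 TPM at 24 h and 2.34 and 1.93 TPM at 48 h. KO ESCs had 95.4 and 129 TPM, and KO spheroids 7.34 and 7.25 TPM at 24 h and 0.778 and 1.27 TPM at 48 h. The 3 times did not overlap in either genotype, and the counts behind the lowest group were 51 and 63 estimated counts. From 0 h to 24 h the fall was 13.5-fold in WT (log2 -3.76, SE 0.17, adjusted p = 9.6e-11) and 15.5-fold in KO cells (log2 -3.96, SE 0.17, adjusted p = 4.3e-11), the latter -4.0 (adjusted p = 1.5e-08) without the KO library that detected the fewest genes. From 24 h to 48 h the level dropped further, 3.07-fold in WT (log2 -1.62, SE 0.19, adjusted p = 2.1e-05) and 6.87-fold in KO cells (log2 -2.78, SE 0.21, adjusted p = 1.1e-07). Over the whole course *Socs3* fell 41.5-fold in WT and 107-fold in KO cells.

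The stretch of 250 bases before the RefSeq start of *Socs3* is shown because it was the only one, among the windows found for 8 of the 9 genes, that held the spaced palindrome TTCNNNGAA, the core of STAT binding sites, and that of *Junb* is shown beside it because *Junb* followed *Socs3* most closely among the 9 without holding it. Both are on the minus strand, read 5′ to 3′ and taken from RefSeq on GRCm38.p6, chr11:117969367-117969616 for *Socs3* and chr8:84978749-84978998 for *Junb*, and capitals mark the match.
Socs3: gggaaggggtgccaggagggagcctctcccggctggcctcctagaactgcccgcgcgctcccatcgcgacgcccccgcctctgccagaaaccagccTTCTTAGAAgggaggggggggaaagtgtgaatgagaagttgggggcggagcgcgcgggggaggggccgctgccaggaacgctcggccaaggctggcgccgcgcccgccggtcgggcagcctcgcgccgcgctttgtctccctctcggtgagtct
Junb: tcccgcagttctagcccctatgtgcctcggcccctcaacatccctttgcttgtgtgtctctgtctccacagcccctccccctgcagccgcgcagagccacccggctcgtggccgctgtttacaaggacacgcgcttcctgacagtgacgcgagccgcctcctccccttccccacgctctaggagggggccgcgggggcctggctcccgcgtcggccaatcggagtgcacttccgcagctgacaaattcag

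The match in *Socs3* lies at chr11:117969512-117969520, 326 bases upstream of the start of the coding transcript Socs3-201 in the GENCODE annotation and within an intron of the noncoding transcript Socs3-202. The *Socs3* stretch shown ended 181 bases upstream of the start of Socs3-201. The *Junb* stretch ended 31 bases upstream of the start of its coding transcript. The scanned *Socs3* window, down to chr11:117969317, did not reach the start of Socs3-201 at chr11:117969186. The bases next to that start were not scanned. The palindrome reads the same on both strands, so that 1 scan covered both. RefSeq windows of 300 bases, from 250 before to 50 after the start, were matched by symbol for 8 of the 9 genes, all but *Tbx3*. Of these 8, 1 (12.5%) held the palindrome, and of all 27025 genes with a window 2582 (9.55%) did, so that the share among the 8 was near that of all genes. Of the other STAT3 targets listed further on, 11 had a window and 1 (9.09%) held it. A match describes the letters of a window and is no evidence of binding, and windows without one say only that these letters are not in them.

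Of *Junb*, *Tbx3*, *Gbx2* and *Pim1*, *Junb* (chr8:84974484-84978718, minus strand), which encodes a subunit of the AP-1 transcription factor, had the largest fall by 24 h. It had 36.7 and 31.2 TPM in WT ESCs, 11.7 and 11.5 TPM at 24 h and 7.73 and 6.58 TPM at 48 h, and the KO values were 39.7 and 40.9, 9.45 and 11.2, and 5.43 and 6.85 TPM. The times did not overlap in either genotype. The fall at 24 h was 3.05-fold in WT (log2 -1.61, SE 0.17, adjusted p = 1.6e-06) and 4.0-fold in KO cells (log2 -2.0, SE 0.18, adjusted p = 8e-08), where it was -1.91 (adjusted p = 7.3e-08) without the KO library that detected the fewest genes. At 48 h it was 4.83-fold (log2 -2.27, SE 0.18, adjusted p = 1e-08) and 6.36-fold (log2 -2.67, SE 0.18, adjusted p = 9.5e-10). *Junb* also belongs to the immediate-early genes, which respond within minutes to serum and handling. A list of 11 other immediate-early genes summed to between 288 and 347 TPM at 0 h, 165 and 193 TPM at 24 h and 132 and 160 TPM at 48 h, and the part of such responses in the fall of *Junb* was not tested.

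*Tbx3* (chr5:119670669-119684724, plus strand) encodes a T-box factor of the naive network and was the most abundant of the 9 in ESCs. WT cells had 145 and 134 TPM at 0 h, 59.0 and 46.4 TPM at 24 h and 16.7 and 15.4 TPM at 48 h. KO cells had 170 and 157 TPM, 60.2 and 60.2 TPM, and 10.2 and 12 TPM, and no 2 times overlapped in either genotype. Without the KO library that detected the fewest genes the log2 fold change at 24 h in KO cells was -1.49 (adjusted p = 0.00085). *Tbx3* kept falling in the second day: 46.3% of its log2 change over 48 h had taken place by 24 h in WT and 42.1% in KO cells, against 70.8% and 74.9% for *Junb*. In WT cells the share was smaller still for *Lifr* (33.7%), *Il6st* (39.1%) and *Jak1* (40.6%). In KO cells it was 32.5% for *Il6st* and 84.5% for *Jak1*, and *Lifr* was not lower at 24 h. At 48 h *Tbx3* had fallen 7.90-fold in WT (log2 -2.98, SE 0.15, adjusted p = 1.4e-08) and 12.6-fold in KO cells (log2 -3.66, SE 0.15, adjusted p = 2e-09), the largest change after that of *Socs3*.

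*Gbx2* (chr1:89927956-89931179, minus strand), a homeobox factor, was the least abundant of the 9 in WT ESCs. It had 17.4 and 17.1 TPM at 0 h, 9.53 and 8.99 TPM at 24 h and 4.47 and 5.35 TPM at 48 h in WT, and 20.4 and 21, 4.35 and 7.40, and 2.62 and 4.15 TPM in KO cells. The times did not overlap in either genotype, although the 2 KO libraries at 24 h lay apart from each other. The log2 fold change at 24 h was -0.96 in WT (SE 0.24, adjusted p = 0.0082) and -1.71 in KO cells (SE 0.24, adjusted p = 3.6e-05), the latter -1.40 (adjusted p = 0.00021) without the KO library that detected the fewest genes. At 48 h the falls were 3.63-fold (log2 -1.86, SE 0.24, adjusted p = 9.5e-06) and 6.66-fold (log2 -2.74, SE 0.25, adjusted p = 7.9e-08). The 24 h call in WT ended without any one of 3 of the 4 libraries compared, at adjusted p-values from 0.052 to 0.09, and at 0.072 with transcript lengths in the fit.

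*Pim1* (chr17:29490753-29496112, plus strand), which encodes a serine/threonine kinase, was called lower at 24 h and at 48 h than at 0 h in both genotypes. WT cells had 45.6 and 40.9 TPM at 0 h, 24.1 and 21.6 TPM at 24 h and 14.1 and 15.0 TPM at 48 h. KO cells had 41.2 and 38.5 TPM at 0 h, 14.7 and 16.5 TPM at 24 h and 12.6 and 15.4 TPM at 48 h, so that the KO values at 24 h and 48 h overlapped and the WT values did not. The fall from 0 h to 24 h was 1.97-fold in WT (log2 -0.98, SE 0.12, adjusted p = 1.2e-05) and 2.62-fold in KO cells (log2 -1.39, SE 0.13, adjusted p = 1.2e-07), the latter -1.34 (adjusted p = 1.1e-07) without the KO library that detected the fewest genes. From 24 h to 48 h the log2 fold change was -0.61 in WT (SE 0.13, adjusted p = 0.0034) and -0.07 in KO cells (SE 0.13, adjusted p = 0.80), and the WT call was lost without replicate 1 at 24 h (adjusted p = 0.061) or at 48 h (adjusted p = 0.063). By 48 h both had fallen, 3.01-fold in WT and 2.76-fold in KO cells.

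**Figure D2:**
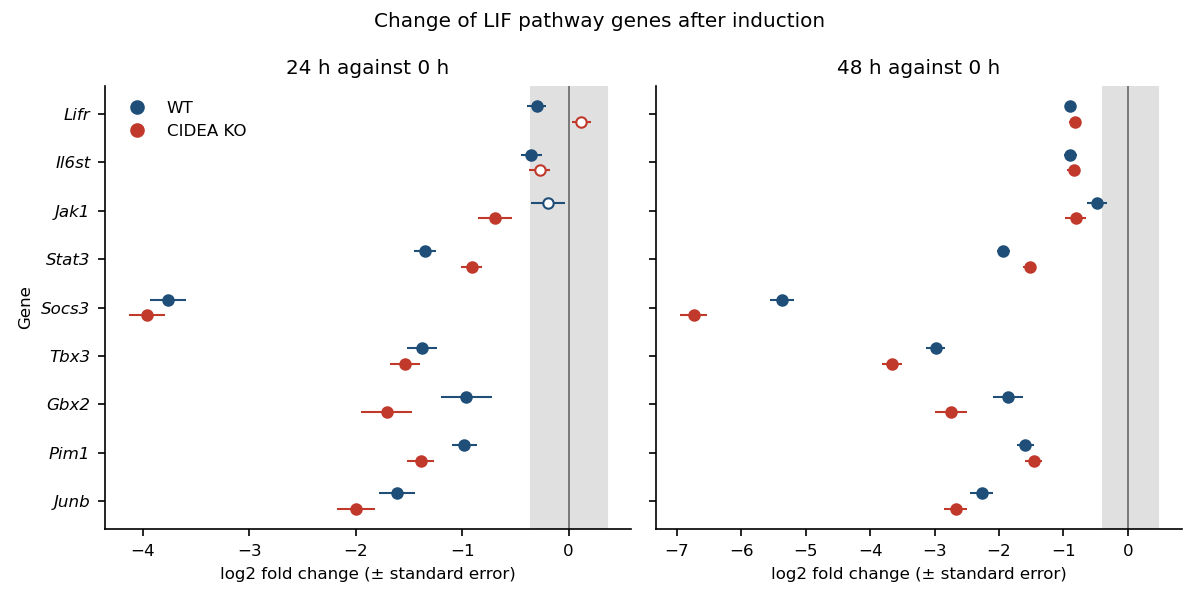
Log2 fold change of the 9 genes at 24 h (left) and 48 h (right) against 0 h in WT (blue) and CIDEA KO cells (red), with bars for the standard error, filled points for adjusted p under 0.05, and grey for the interquartile range of all genes tested in WT cells. *Socs3* lies farthest to the left in both panels, and the open points at 24 h are *Lifr* and *Il6st* in KO and *Jak1* in WT cells.

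The 9 genes followed *Socs3* to different degrees. Over the 12 libraries, which share the same steps in time, the Pearson correlation of log2 CPM with *Socs3* was 0.987 for *Junb*, 0.970 for *Tbx3*, 0.966 for *Stat3* and 0.961 for *Gbx2*. It was lower for *Pim1* (0.939), *Il6st* (0.914), *Jak1* (0.813) and *Lifr* (0.791). Among 12277 genes compared, the 5 with the most similar pattern were *Tcl1* (0.996), *Itpk1* (0.994), *Cavin1* (0.992), *Tfcp2l1* (0.992) and *Triml1* (0.991), and *Junb* ranked 15. *Tcl1*, which encodes a cofactor of AKT kinases, had 170 and 188 TPM in WT ESCs, 51.6 and 50.4 TPM at 24 h and 22.6 and 24.6 TPM at 48 h. *Tfcp2l1*, a transcription factor of naive cells and a known STAT3 target, had 62.9 and 70.9, 16.5 and 16.6, and 6.08 and 6.37 TPM. Both were stepwise lower in KO cells as well, with *Tcl1* at 13.1 and 18.4 TPM and *Tfcp2l1* at 4.91 and 5.10 TPM at 48 h. These correlations are descriptions, since 12 libraries in 3 times hold few independent steps.

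Before induction no gene of the 9 passed the test between the genotypes. At 0 h edgeR called 0 of the 9 between KO and WT ESCs, against 1.26% of all genes tested, and 1 had an unadjusted p under 0.05, against 10.0% of all genes. DESeq2 and limma also called 0. The one gene was *Stat3*, with 163 and 167 CPM in KO and 203 and 215 CPM in WT ESCs. It was 1.27-fold lower in KO cells (log2 -0.34, SE 0.099, adjusted p = 0.12), a difference called only without a filter on low counts (adjusted p = 0.038), with only the 2 groups in the fit (adjusted p = 0.041), or without either of the KO libraries at 24 h (adjusted p = 0.035 and 0.03). Gene TPM did not separate the genotypes for *Stat3*, but its main transcript Stat3-203 of 4516 bases did, with 56.1 and 57.6 TPM in WT and 43.9 and 46.8 TPM in KO ESCs. *Socs3* at 0 h was 95.4 and 129 TPM in KO against 85.4 and 91.6 TPM in WT ESCs (log2 0.31, SE 0.15, adjusted p = 0.51).

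At 24 h 1 of the 9 was called, against a background of 1.46%. This was *Pim1*, 1.49-fold lower in KO spheroids (log2 -0.57, SE 0.13, adjusted p = 0.022), with all KO values (14.7 and 16.5 TPM) below all WT values (24.1 and 21.6 TPM). The call was lost with only the 2 groups in the fit (adjusted p = 0.28), with transcript lengths (adjusted p = 0.18), with limma on TPM (adjusted p = 0.25), without either WT library at 24 h (adjusted p = 0.33 and 0.058) and without the KO library that detected the fewest genes (log2 -0.52, adjusted p = 0.083). *Lifr* lay just outside the threshold in the other direction, with 142 and 162 CPM in KO and 121 and 117 CPM in WT spheroids (log2 0.35, SE 0.09, adjusted p = 0.059). Without the KO library that detected the fewest genes the difference in *Lifr* was 0.45 on the log2 scale (adjusted p = 0.017), without the other KO library it was 0.25 (adjusted p = 0.10), and DESeq2 called it with all libraries (adjusted p = 0.012). *Gbx2* had a log2 fold change of -0.51 (SE 0.24, adjusted p = 0.39), which was -0.20 without that library and -0.90 without the other KO library. *Jak1* likewise had -0.30 (SE 0.16, adjusted p = 0.48) with all libraries, 0.02 without the first and -0.72 without the second. Without the second, the KO group at 24 h held only the library that detected the fewest genes.

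At 48 h 1 of the 9 was called, against a background of 0.671%. *Socs3* was 2.08-fold lower in KO than in WT spheroids (log2 -1.06, SE 0.23, adjusted p = 0.044), with 51 and 63 estimated counts in KO and 116 and 118 in WT libraries. The 2 genotypes did not overlap. The call lay at the edge of the threshold, and it was lost with the replicate number as a block (adjusted p = 0.051), with only the 2 groups in the fit (adjusted p = 0.34), with transcript lengths (adjusted p = 0.17), with limma on TPM (adjusted p = 0.28 and 0.47) and in 9 of the 12 fits without 1 library, whose log2 fold changes ran from -0.73 to -1.19 in the cases in which it was lost. *Tbx3* (log2 -0.48, SE 0.14, adjusted p = 0.27) and *Gbx2* (log2 -0.63, SE 0.25, adjusted p = 0.47) had lower values in KO spheroids that did not pass the threshold, and *Tbx3* was called by DESeq2 (adjusted p = 0.02) and without replicate 2 of the KO spheroids (log2 -0.75, adjusted p = 0.0037). The receptor subunits *Lifr* and *Il6st* had a log2 fold change of 0 at this time (SE 0.091 and 0.10).

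**Figure D3:**
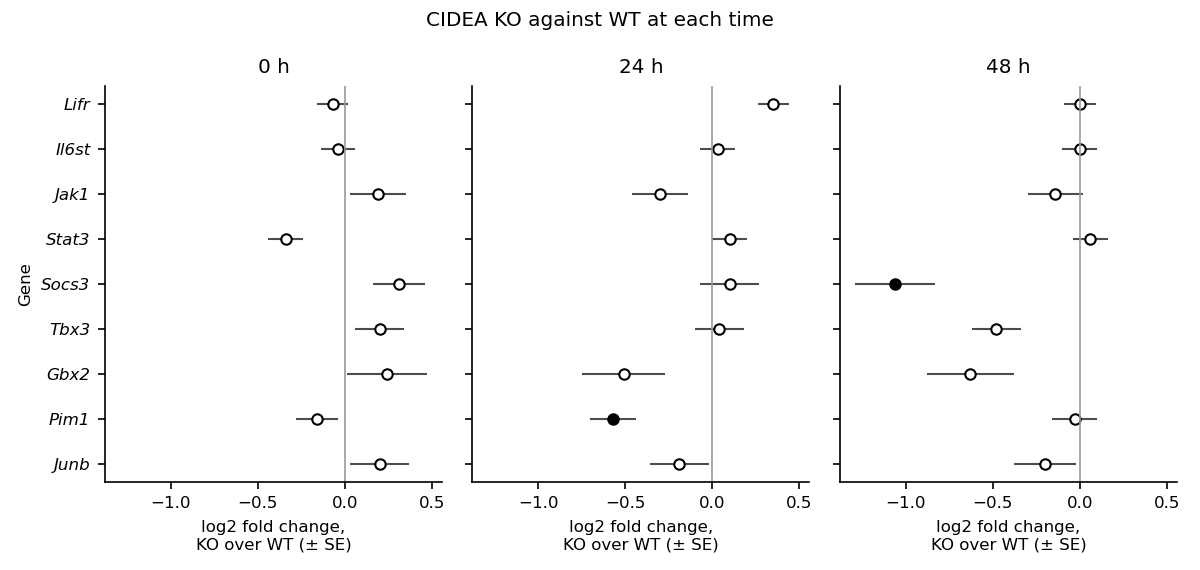
Log2 fold change of CIDEA KO over WT for the 9 genes at 0 h, 24 h and 48 h, with bars for the standard error and filled points for adjusted p under 0.05. The filled points are *Pim1* at 24 h (-0.57) and *Socs3* at 48 h (-1.06), and *Lifr* at 24 h (0.35) lies on the other side of 0.

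Interaction terms compared the genotype difference at each later time with that at 0 h. For 24 h against 0 h edgeR called 0 of the 9, against 0.0115% of all genes, and DESeq2 and limma called 0 as well. Unadjusted p-values were under 0.05 for 5 of the 9, against 5.91% of all genes, namely *Lifr* (log2 0.42, SE 0.13), *Stat3* (0.44, SE 0.14), *Jak1* (-0.49, SE 0.23), *Gbx2* (-0.75, SE 0.33) and *Pim1* (-0.41, SE 0.18), all with adjusted p-values of 0.81 or 0.84. The values of *Jak1* and *Gbx2* became -0.18 and -0.45 without the KO library that detected the fewest genes, and those of *Lifr* and *Stat3* became 0.51 and 0.30. Without the other KO library at 24 h the values were -0.91 for *Jak1*, 0.56 for *Stat3* and -1.14 for *Gbx2*. In that fit the KO group at 24 h held only the library that detected the fewest genes. For 48 h against 0 h edgeR called 0 of the 9, against 0.0402% of all genes, while DESeq2 called 2 and limma 0. Unadjusted p-values were under 0.05 for 4 of the 9, against 5.76% of all genes. These were *Socs3* (log2 -1.36, SE 0.27, adjusted p = 0.14), *Tbx3* (-0.68, SE 0.20, adjusted p = 0.49), *Gbx2* (-0.88, SE 0.34, adjusted p = 0.74) and *Stat3* (0.40, SE 0.14, adjusted p = 0.64), and the calls by DESeq2 were *Socs3* (adjusted p = 6e-04) and *Tbx3* (adjusted p = 0.02). With edgeR *Socs3* was called without replicate 1 of the KO ESCs (-1.58, adjusted p = 0.021) and without replicate 2 of the KO spheroids at 48 h (-1.72, adjusted p = 0.015), and *Tbx3* without the latter (-0.95, adjusted p = 0.0077).

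The TPM of *Lifr*, *Jak1*, *Stat3*, *Tbx3* and *Il6st* depended in part on short annotated transcripts, which weigh heavily in a length-scaled unit. Tbx3-205, of 485 bases, made up a mean of 22.9% of the TPM of its gene over the libraries. Il6st-205, of 322 bases, made up a mean of 13.9%. *Lifr* had 53.9 and 41.4 TPM in KO spheroids at 24 h, the highest values of the series, of which the transcript Lifr-205 of 299 bases made up 27.5 and 9.75 TPM. The coding transcripts Lifr-203 and Lifr-201 together gave 24.1 and 27.8 TPM in these libraries and 20.9 and 20.1 TPM in WT spheroids, groups that still did not overlap but lay closer. For *Jak1* the coding transcript Jak1-201 had 8.19 and 15.6 TPM in KO spheroids at 24 h, while Jak1-204, of 589 bases, had 6.26 TPM in the first of these libraries and 0 in the second. The gene values of 16.7 and 15.6 TPM were close, although those of the coding transcript were not. Estimates for such short transcripts differed between replicates in WT cells too, for instance 0 and 4.78 TPM for Lifr-205 in ESCs.

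**Figure D4:**
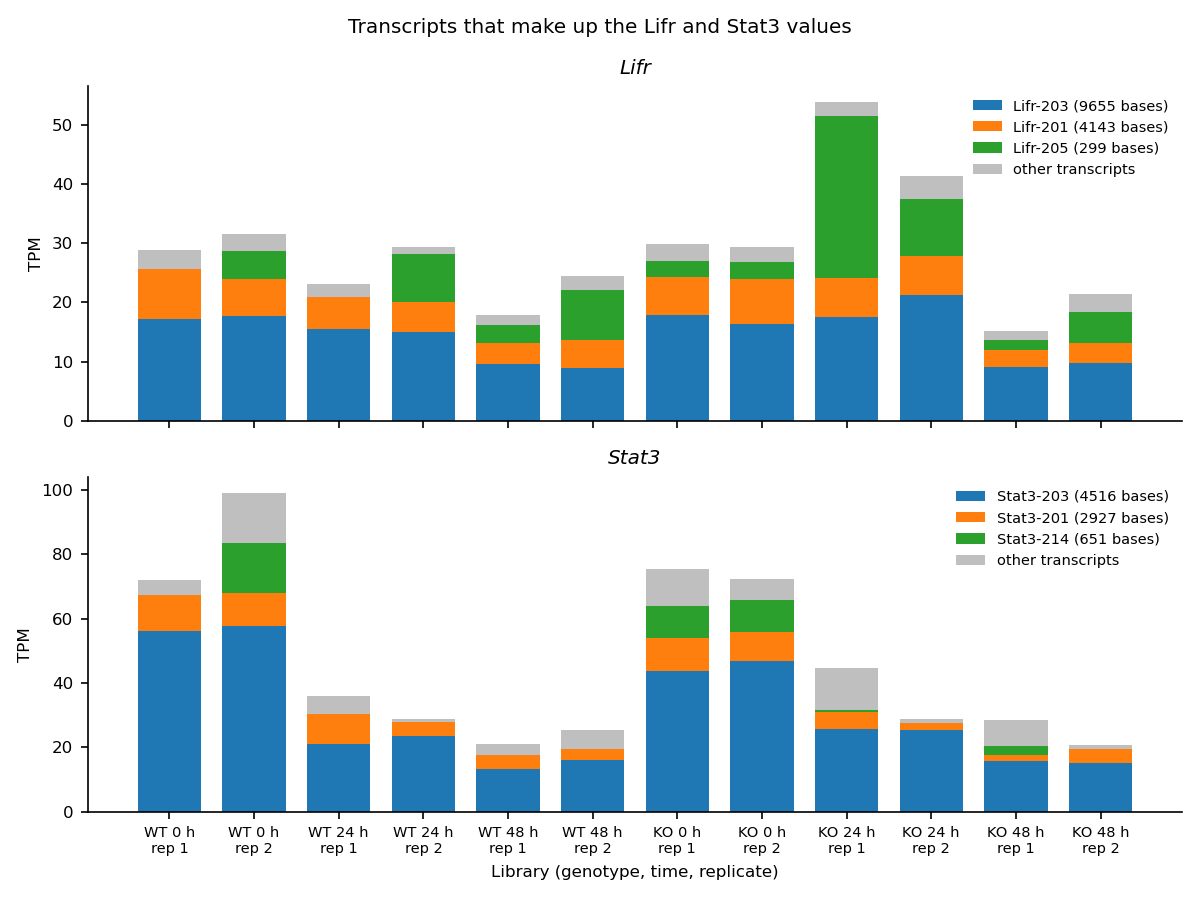
TPM of *Lifr* (top) and *Stat3* (bottom) in each library, as stacked bars from 0 divided into the 3 transcripts with the largest mean share and all others (grey). The transcript Lifr-205 of 299 bases (green) contributes 27.5 TPM to replicate 1 of the KO spheroids at 24 h, and Stat3-203 (blue) makes up most of *Stat3* in every library.

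The other genes of the pathway were taken by role, also with earlier results of these data known. Their counts at 24 h against 0 h stand beside the same background of all genes tested. This was 7.47% lower and 7.54% higher in WT and 9.33% lower and 9.24% higher in KO cells. Of the ligands, *Lif* had 1.29 and 10.4 TPM in WT ESCs and 3.73 and 2.67 TPM at 24 h, ranges that overlapped. Of 5 other receptor genes 1 was called in either genotype, *Cntfr*, the receptor subunit for ciliary neurotrophic factor, which also signals through gp130 and the LIF receptor. It rose 1.94-fold in WT (log2 0.96, SE 0.12, adjusted p = 1.4e-05) and 2.35-fold in KO cells (log2 1.23, SE 0.12, adjusted p = 4.1e-07) by 24 h, opposite to *Lifr* in WT cells. The KO value was 1.22 (adjusted p = 2.5e-07) without the KO library that detected the fewest genes. Of 9 other JAK and STAT genes 3 were called lower and 0 higher in WT cells at 24 h, *Stat5b* (log2 -0.90, SE 0.21), *Jak3* (-0.77, SE 0.18) and *Stat6* (-0.58, SE 0.13). In KO cells 2 were called lower, *Stat5b* and *Stat6*, with or without that library, and *Jak3* had a log2 fold change of -0.10 (SE 0.18, adjusted p = 0.78).

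Of 14 other inhibitors of cytokine signalling 1 was called in WT cells at 24 h, *Socs2*, a relative of *Socs3*, which fell 1.37-fold (log2 -0.46, SE 0.11, adjusted p = 0.0063). A share of 1 in 14 is near the background and no result about these genes. Their median was -0.09, whereas *Socs3* stood at -3.76. Of 15 genes of the ERK and PI3K arms, which LIF also engages, 1 was called, *Gab1*, an adaptor protein, higher by 1.26-fold (log2 0.34, SE 0.065, adjusted p = 0.0011), again a share near the background. In KO cells 2 were called higher at 24 h, *Gab1* and *Hras* (log2 0.41, SE 0.11), and 2 lower, *Pik3r1* (-0.90, SE 0.23) and *Pik3ca* (-0.45, SE 0.13), both subunits of PI3K. Without the KO library that detected the fewest genes *Gab1* (adjusted p = 0.0011) and *Hras* (adjusted p = 0.023) were still called, while *Pik3r1* (-0.61, adjusted p = 0.11) and *Pik3ca* (-0.29, adjusted p = 0.22) were not.

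Of 16 other genes known as STAT3 targets 8 were called lower and 1 higher in WT cells at 24 h, and the median log2 fold change was -1.26. *Tfcp2l1* fell 4.09-fold (log2 -2.03, SE 0.13, adjusted p = 3.9e-08) and *Klf4*, a factor of the naive network, 3.53-fold (log2 -1.82, SE 0.09, adjusted p = 3.8e-11). *Egr1*, which is an immediate-early gene as well, fell the most, from 35.7 and 46.1 TPM to 0.313 and 1.04 TPM (log2 -5.97, SE 0.57, adjusted p = 0.00054). *Ccnd1*, the cell cycle regulator cyclin D1, rose 1.82-fold (log2 0.87, SE 0.081, adjusted p = 2.4e-07). In KO cells 9 of the 16 were called lower and *Ccnd1* higher, with a median of -1.71. Without the KO library that detected the fewest genes the counts were the same and the median was -1.53. Of the 11 immediate-early genes, of which *Fos* and *Egr1* also stand in the STAT3 target list, 5 were called lower in WT and 6 in KO cells at 24 h, and none in WT and *Btg2* in KO cells higher. Without that library the count in KO cells was also 6, but *Fos* was not among them (adjusted p = 0.16). Besides *Egr1*, *Zfp36*, whose product destabilises mRNA, fell 2.51-fold in WT cells (log2 -1.33, SE 0.33, adjusted p = 0.0081), while *Atf3* had a log2 fold change of -1.81 (SE 0.72, adjusted p = 0.11) and *Fos* one of -4.68 (SE 1.5, adjusted p = 0.079).

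**Figure D5:**
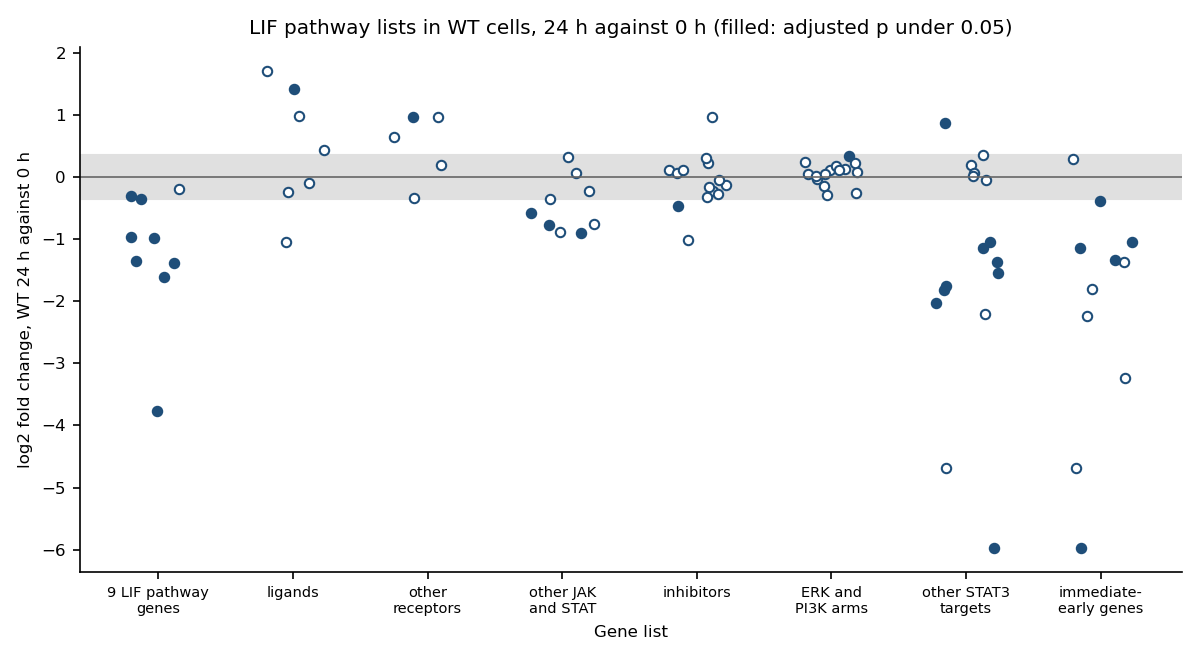
Log2 fold change at 24 h against 0 h in WT cells for the 9 LIF pathway genes and 7 lists of related genes, with 1 point per gene tested, filled where adjusted p was under 0.05, and grey for the interquartile range of all genes. Points are spread sideways only to keep them apart, and *Fos* and *Egr1* appear in both of the last lists.

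Among the genes of these lists called between the genotypes, *Klf4* was higher in KO cells at 0 h, with 265 and 255 TPM against 182 and 176 TPM (log2 0.47, SE 0.087, adjusted p = 0.0058), and at 24 h, with 67.7 and 74.8 TPM against 49.9 and 52.9 TPM (log2 0.42, SE 0.088, adjusted p = 0.017), the latter 0.43 (adjusted p = 0.023) without the KO library that detected the fewest genes. *Dusp1*, a phosphatase of MAP kinases, was lower in KO spheroids at 24 h (log2 -0.67, SE 0.14, adjusted p = 0.021), a call lost without that library (-0.62, adjusted p = 0.076), and *Ccnd1* was higher at 48 h (log2 0.44, SE 0.08, adjusted p = 0.0095). None of the genes in these lists was called for an interaction of genotype and time by edgeR. Of the post-implantation epiblast markers, *Pou3f1* was called for it at 24 h (lower), against 0.0115% of all genes. *Otx2* and *Lef1* were called at 48 h (higher), against 0.0402%.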

How the data were processed

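Per the labels and the study's methods, the authors trimmed reads with Trimmomatic 0.33 after FastQC and quantified transcripts with kallisto 0.43.1. The transcript set was not given in the sources used here. The deposited tables hold, for 115270 transcripts per library, estimated counts (expected counts, not scaled) and TPM, which the authors' run of kallisto scaled by effective length to 1 total per library. Groups came from the sample titles.

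Identifiers of 98.5% of the transcripts were found in GENCODE M21, on GRCm38, and the rest held 0.659% to 0.709% of the counts and were left out. Estimated counts were summed per gene, rounded to whole numbers and modelled with edgeR 4.0.16 in R 4.3.3, using TMM, filterByExpr, robust quasi-likelihood dispersions and 1 mean per group over all 12 libraries. Each standard error (SE) was derived from the quasi-likelihood test, as the absolute log2 fold change divided by the square root of its F value. The biological coefficient of variation was 0.311, and chi-square values between replicates were 11.0 to 32.4 per degree of freedom. A floor of 3 counts was 0.0784 to 0.1041 CPM and accounts for counting error alone, because no molecular identifiers were used. Reads shared by near-identical genes are divided by kallisto.

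The genes and lists were chosen with earlier results of these data known. The text names all 9 genes and *Cidea*, from each list up to 4 genes with the largest change in WT cells at 24 h among those called there or in KO cells, any list gene called between genotypes, and the 5 genes closest to *Socs3* among those with average log2 CPM of at least 1. *Lif*, *Btg2* and the genotype differences with unadjusted p under 0.05 were chosen after their values were seen. The lists are ligands, other receptors, other JAK and STAT genes, inhibitors, ERK and PI3K arms, other STAT3 targets and immediate-early genes. Alternatives were DESeq2 1.42.0, its size factors in edgeR, no filter, at least 10 counts in every library, only the groups compared, a replicate block, average transcript lengths as offsets, limma 3.58.1 on log2(TPM + 1) and log2(TPM + 0.1), and leaving out each library (for the list genes, 1 KO library at 24 h, chosen after seeing the data). Promoter windows came from RefSeq. Some genes that the rule names are not reported here.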

Additional observations from a re-analysis of the deposited data

How the results depend on the processing

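In WT cells at 24 h against 0 h, 5 of the 9 genes were called with average transcript lengths as offsets and with limma on either TPM scale, in place of 8. At 48 h against 24 h, 4 were called with lengths and 2 with limma in WT cells, in place of 8, and 3 with each of them in KO cells, in place of 7. At 48 h against 0 h, 8 were called with lengths and 7 with limma in either genotype, in place of 9. *Il6st* turned to 0.01 on the log2 scale under both limma fits in WT cells at 24 h. Leaving out 1 library gave 5 to 8 calls in WT cells at 24 h, 4 to 8 between 24 h and 48 h (4 without replicate 1 of the WT spheroids at 48 h, 5 without replicate 1 at 24 h) and 8 to 9 at 48 h, and 6 to 8, 5 to 8 and 9 to 9 in KO cells. *Jak1* in KO cells between 24 h and 48 h ranged from -0.46 without replicate 1 at 24 h to 0.28 without replicate 2 at 24 h, and *Pim1* there from -0.22 without replicate 2 to 0.05 without replicate 1 at 48 h.

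Between the genotypes, 1 gene was called at 0 h without a filter and with only the groups compared, in place of 0. At 24 h 2 were called with DESeq2, its size factors, no filter or at least 10 counts, and 0 with only the groups compared, lengths or limma, in place of 1. At 48 h 2 were called with DESeq2 or no filter, and 0 with only the groups compared, the replicate block, lengths or limma, in place of 1. Leaving out 1 library gave 0 to 1 calls at 0 h, 0 to 3 at 24 h (3 without replicate 2 of the KO spheroids at 24 h) and 0 to 2 at 48 h (2 without replicate 2 of the KO spheroids at 48 h). For the interactions the ranges were 0 to 3 at 24 h and 0 to 2 at 48 h, and DESeq2 and no filter each called 2 at 48 h. The interaction of *Jak1* at 24 h turned to 0.10 with lengths and 0.11 with either limma fit. The cause of these changes was not tested. Without replicate 2 of the KO spheroids at 24 h, that group held only the library that detected the fewest genes.

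Same-numbered WT and KO libraries did not deviate together (correlations of 0.003, 0.051 and -0.009 at 0, 24 and 48 h), so that the replicate block pairs libraries by number alone. It moved the *Socs3* difference at 48 h from an adjusted p of 0.044 to 0.051 and changed no other count of calls. Of 1470 values of single genes recomputed for the time comparisons and the genotype differences with unadjusted p under 0.05, 1329 kept their direction and their side of the threshold. Of the other genotype differences 33 of 261 changed sign under other settings and 36 of 348 without 1 library.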
